A study of Mus musculus with 19 samples.

Results

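Complexes III and IV are the last proton-pumping machines of the mitochondrial respiratory chain, and 36 of their genes were followed here: 9 nuclear-encoded complex III subunits, cytochrome c (Cycs), 13 complex IV subunit genes, Cox7a2l and 12 complex IV assembly factors. They were taken by name from a list, not by a threshold on measured values, though the list was drawn up with earlier results of these data known, out of 35598 genes in the expression tables. All 36 passed the filter on low counts, as did 15123 genes in all. RNA came from primary myoblasts (muscle precursor cells) of mouse hind-limb muscle, either wild type (WT) or deficient in Glud1, the gene of the mitochondrial enzyme glutamate dehydrogenase (labelled Glud1KO). The 19 libraries covered 3 stages: myoblasts growing at 24 h (3 WT and 3 Glud1KO libraries), differentiated myotubes at 48 h (3 WT and 2 Glud1KO) and fused myotubes at 72 h (4 WT and 4 Glud1KO). The labels do not give the allele, the driver of any deletion, the sex or age of the mice, or whether libraries came from separate animals or cultures, so p-values measure the spread between these libraries only.

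Complex III takes electrons from ubiquinol and hands them to cytochrome c, a small soluble carrier, and complex IV (cytochrome c oxidase) passes them on to oxygen. The catalytic cores are encoded partly in mitochondrial DNA, while the surrounding subunits are nuclear, so both genomes have to supply parts and a set of assembly factors inserts haem and copper. Some complex IV subunits exist as paired isoforms: Cox6a2, Cox7a1 and Cox8b are the forms of heart and skeletal muscle, and Cox6a1, Cox7a2 and Cox8a are their counterparts found in most tissues.

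Total estimated counts per library lay between 16087057 and 30657153. Summed CPM (counts scaled to a common library size) of 6 muscle markers rose from 2072 to 2325 in WT myoblasts to 32926 to 37871 in WT differentiated myotubes, and stood at 31338 to 34137 in WT fused myotubes. Markers of other lineages were near 0 throughout, with summed levels in any library of at most 3.93 CPM for each of the fibroblast, endothelial, leukocyte and adipocyte lists. Glud1 RNA itself did not differ by genotype at any stage past the threshold (log2 fold change −0.02 at 24 h, −0.09 at 48 h and −0.02 at 72 h), and the part of the gene affected is not given in the sources used here, so its level neither checks nor contradicts the labels. The libraries are bulk RNA, in which fewer cells of a type and less RNA per cell cannot be told apart. For 5 members at least 10% of their sequence, read as stretches of 31 bases, also occurs in another expressed gene: Cox11 (with Tom1l1), Cox16 (Gm20498), Cox20 (Hnrnpu), Cycs (Gm10053) and Sco2 (Ncaph2 and Tymp). The strand setting of the counting is not stated, and values of these 5 genes are uncertain.

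Per unit of length, the summed RNA of the subunits of both complexes rose as WT cells differentiated. The summed level of the 9 complex III subunits was 3833 ± 53.6 TPM (level per unit of transcript length as a share of the library, SD, n = 3) in myoblasts, 4527 ± 184 TPM (n = 3) in differentiated myotubes and 8276 ± 152 TPM (n = 4) in fused myotubes. The 10 single or ubiquitous complex IV subunits summed to 6488 ± 92.5, 7084 ± 346 and 10889 ± 215 TPM at the same stages. The muscle isoforms of complex IV started almost silent, at 31.5 ± 4.73 TPM for all 3 together, and reached 455 ± 11.1 and then 1374 ± 99.5 TPM. Assembly factors were far less abundant for their number: the 12 genes summed to 563 ± 4.83, 797 ± 74.8 and 1042 ± 61.7 TPM.

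Cox6a2, the muscle form of a subunit that regulates complex IV activity, overtook its ubiquitous partner between 48 and 72 h. In WT myoblasts it stood at 8.66, 10.1 and 12.4 TPM, in differentiated myotubes at 138, 138 and 142 TPM, and in fused myotubes at 585, 545, 597 and 522 TPM. Cox6a1 went the other way, from 495, 476 and 542 TPM through 405, 380 and 396 TPM to 227, 215, 233 and 203 TPM. No library of a stage overlapped a library of another stage for either gene. The log2 fold change of Cox6a2 was 3.84 ± 0.089 (SE) from 24 to 48 h and 2.15 ± 0.055 from 48 to 72 h, and Cox6a1 fell by 0.24 ± 0.050 and 0.71 ± 0.049 on the log2 scale (edgeR adjusted p of 3.8e-24, 3.4e-22, 8.8e-05 and 4.75e-13). Cox6a2 thus made up 2.01% ± 0.268 (SD, n = 3), 26.2% ± 0.696 (n = 3) and 72.0% ± 0.142 (n = 4) of the summed TPM of the pair at the 3 stages.

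Cox8b and Cox8a, the alternative forms of the smallest class of complex IV subunit, crossed in the same interval. Cox8b stood at 20.1, 14.0 and 19.1 TPM in WT myoblasts, 304, 302 and 275 TPM in differentiated myotubes and 605, 606, 617 and 529 TPM in fused myotubes. Cox8a stood at 673, 655 and 677 TPM, then 586, 526 and 500 TPM, then 307, 306, 319 and 306 TPM. On the log2 scale the Cox8b rise was larger before 48 h, with a fold change of 4.15 ± 0.10 from 24 to 48 h (17.7-fold) against 1.12 ± 0.061 from 48 to 72 h (2.17-fold). Cox8a fell by 0.18 ± 0.049 and then by 0.66 ± 0.048 on the log2 scale. All 4 changes passed the threshold in edgeR's quasi-likelihood test, the largest adjusted p being 0.0013 for the first fall of Cox8a.

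The third pair did not cross. Cox7a1, the muscle form of a subunit at the dimer and supercomplex interface, rose mostly after 48 h: 4.27, 2.05 and 3.81 TPM in WT myoblasts, 18.6, 22.5 and 25.5 TPM in differentiated myotubes and 234, 240, 237 and 179 TPM in fused myotubes. Its log2 fold changes were 2.80 ± 0.25 (6.94-fold) and 3.42 ± 0.11 (10.7-fold), the first of them from only 7 to 18 estimated counts per WT myoblast library. Its partner Cox7a2 rose as well, from 503, 488 and 498 TPM through 650, 633 and 559 TPM to 985, 962, 927 and 862 TPM (log2 fold changes 0.36 ± 0.051 and 0.78 ± 0.048, edgeR adjusted p of 3.2e-07 and 4.5e-14). Cox7a1 therefore held 0.674% ± 0.225 (SD, n = 3), 3.53% ± 0.799 (n = 3) and 19.2% ± 1.41 (n = 4) of that pair, and remained the minority form at 72 h. Cox7a2l, a relative of both that joins complex III to complex IV in supercomplexes, did not pass the threshold from 24 to 48 h (0.04 ± 0.046, and −0.21 with scaling by library size alone). It stood at 180, 169 and 178 CPM in WT myoblasts and 197, 177 and 171 CPM in differentiated myotubes, and then rose by 0.42 ± 0.043 to 239, 238, 253 and 240 CPM.

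**Figure D1:**
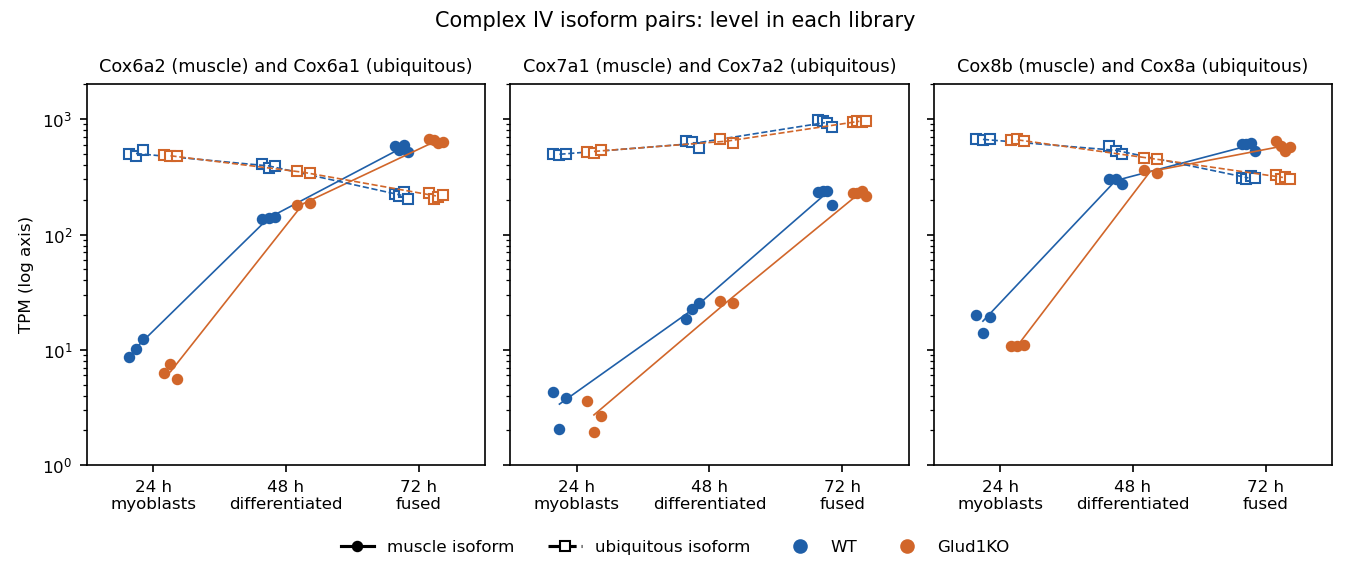
TPM on a log axis for each muscle isoform (filled circles, solid line through the means) and its ubiquitous partner (open squares, dashed line) in every WT (blue) and Glud1KO (orange) library at 24, 48 and 72 h. Cox6a2 and Cox8b lie above Cox6a1 and Cox8a in all 8 fused-myotube libraries, whereas Cox7a1 stays below Cox7a2 in each of them.

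The promoter windows of muscle isoforms that rose (Cox7a1 and Cox8b) and of ubiquitous isoforms that fell (Cox6a1 and Cox8a) are shown. Among these genes only Cox8b and Cox8a are partners. Cox7a2, the partner of Cox7a1, rose as well and is not shown. RefSeq (build GRCm38.p6) gave a window of 250 bases before to 50 bases after the start for 27 of the 36 genes, 28 windows in all, without one for Cox6a2. The windows below run 5′ to 3′ along the gene's strand: Cox7a1 at chr7:30183921-30184220 (+), Cox8b at chr7:140900397-140900696 (−), Cox6a1 at chr5:115348909-115349208 (−) and Cox8a at chr19:7217567-7217866 (−). Capitals mark E-boxes (CANNTG, the letters bound by myogenic factors such as MyoD and myogenin) in the first 2 and the ETS-type letters CCGGAAG, on either strand, in the last 2. The Cox8a window also holds 1 E-box, left unmarked here, and the Cox6a1 window holds none.
Cox7a1: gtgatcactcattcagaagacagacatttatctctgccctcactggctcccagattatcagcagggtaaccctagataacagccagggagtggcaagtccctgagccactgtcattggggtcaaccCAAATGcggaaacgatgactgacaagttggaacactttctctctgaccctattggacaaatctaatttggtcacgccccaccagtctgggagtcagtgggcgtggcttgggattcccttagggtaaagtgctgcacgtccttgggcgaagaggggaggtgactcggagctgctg
Cox8b: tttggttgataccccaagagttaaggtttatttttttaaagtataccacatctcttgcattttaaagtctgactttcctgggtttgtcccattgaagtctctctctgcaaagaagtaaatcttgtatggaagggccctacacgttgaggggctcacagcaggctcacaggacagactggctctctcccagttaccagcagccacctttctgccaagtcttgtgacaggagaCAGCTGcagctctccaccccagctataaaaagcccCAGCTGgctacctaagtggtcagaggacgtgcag
Cox6a1: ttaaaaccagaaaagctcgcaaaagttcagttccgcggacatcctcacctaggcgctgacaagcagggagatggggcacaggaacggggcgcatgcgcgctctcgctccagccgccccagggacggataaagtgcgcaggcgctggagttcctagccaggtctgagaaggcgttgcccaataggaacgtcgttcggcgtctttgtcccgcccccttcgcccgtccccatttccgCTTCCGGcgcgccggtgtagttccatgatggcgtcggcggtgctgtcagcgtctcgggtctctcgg
Cox8a: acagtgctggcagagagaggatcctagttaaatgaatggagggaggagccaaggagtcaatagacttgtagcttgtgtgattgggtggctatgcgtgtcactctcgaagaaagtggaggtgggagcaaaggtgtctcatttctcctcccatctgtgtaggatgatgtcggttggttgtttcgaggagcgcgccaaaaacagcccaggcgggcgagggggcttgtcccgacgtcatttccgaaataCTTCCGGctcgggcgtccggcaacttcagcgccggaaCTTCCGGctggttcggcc

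Over the 28 member windows, CCGGAAG occurred in 13 (46.4%, 12 genes), against 8.86% of all 32851 windows and 11.6% of 21263 windows of protein-coding genes. Of these 12 genes only Cox6a1 and Cox8a fell in both successive WT stage comparisons. Cox14, Cox15, Cox20, Cox6b1, Surf1, Uqcr11 and Uqcrh rose in both. Sco1 rose in the earlier only, Cox16 in the later only, and Cox10 fell and then rose. CCGGAAG was therefore not confined to genes that fell. E-box letters were in 71.4% of member windows and 72.3% of all windows. The letters TATAAA were in 7.14% of member windows and 13.6% of all windows, and Cox8b was among the 2 members that held them, just upstream of its second marked E-box. No member window held the MEF2 motif (3.19% of all windows) or the letters AAGGTCA bound by ERR nuclear receptors (4.72%). Both strands were searched, and in the 4 windows shown no marked letters overlapped another searched motif. A match describes letters in this window and is not evidence of a bound site.

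Beyond the isoform pairs, nearly the whole set moved between the WT stages. From 24 to 48 h, 28 of 36 members rose and 6 fell, in a comparison in which 85.0% of all genes tested passed the threshold, 42.4% higher and 42.6% lower. The members' median log2 fold change was 0.39 and that of all genes 0.02. With scaling by library size alone 19 rose and 7 fell (34.4% and 50.7% of all genes), and the medians were 0.14 and −0.23. From 48 to 72 h, 31 rose and 2 fell (75.1% of all genes passed, 37.4% higher and 37.7% lower), with medians of 0.85 for the members and −0.01 for all genes. Over the whole course from 24 to 72 h, 32 rose and 4 fell (85.5% of all genes passed, 42.2% higher and 43.4% lower). The successive steps share the 48 h libraries. Cox6a1 and Cox8a were the 2 members that fell in the second step, and both had fallen in the first.

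Complex III rose as a block. All 9 subunit genes rose in both steps, by 0.15 (Uqcrq) to 0.79 (Uqcrfs1) on the log2 scale in the first and by 0.76 (Uqcrq) to 1.20 (Uqcrc1) in the second, except that the small first-step values of Uqcrq (−0.11) and Uqcrh (−0.02) turned negative with scaling by library size alone, and those of Uqcrq (−0.13) and Uqcr10 (−0.08) with the trend on length and GC content removed. Uqcrc1, a core protein of the matrix side, went from 316, 289 and 299 CPM in WT differentiated myotubes to 697, 704, 710 and 665 CPM in fused myotubes. Cyc1, the cytochrome c1 subunit that passes electrons to cytochrome c, went from 279, 254 and 268 CPM to 574, 587, 603 and 537 CPM (log2 fold change 1.11 ± 0.046). Uqcrc2, the partner core protein, went from 233, 218 and 223 CPM to 464, 481, 462 and 453 CPM (1.05 ± 0.035). These 3 genes had the largest rises of the second step outside the muscle isoforms, and none of their libraries overlapped between the stages.

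Cycs, the mobile carrier between the complexes, dipped before it rose. It stood at 148, 140 and 144 CPM in WT myoblasts, 116, 110 and 106 CPM in differentiated myotubes and 197, 226, 218 and 208 CPM in fused myotubes, with log2 fold changes of −0.38 ± 0.053 and 0.94 ± 0.050 (edgeR adjusted p of 2.8e-07 and 2.3e-15). The first of these values did not hold across counting choices. It was 0.01 when only protein-coding transcripts were counted, the annotated retained-intron transcript of Cycs taking 30.1% of its counts in WT myoblasts and 15.8% in differentiated myotubes. With Gm10053 added it was −0.10 (adjusted p = 0.034). Per unit of length Cycs stood at 262 ± 13.8 TPM (SD) in WT myoblasts, 124 ± 9.74 TPM in differentiated myotubes and 260 ± 22.5 TPM in fused myotubes. By TPM it therefore dipped but was not higher at 72 h than at 24 h.

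The remaining complex IV subunits rose in both steps. Of the 10 single or ubiquitous forms, 8 rose from 24 to 48 h and 8 from 48 to 72 h, Cox6a1 and Cox8a being the exceptions in each. The second step was the larger, between 0.77 for Cox4i1, a subunit that binds ATP, and 1.05 for Cox5a. Of the risers of the first step, Cox7c was not stable in sign, at −0.10 when counts were scaled by library size alone.

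Assembly factors did not share one course. Cox19, a copper-handling protein of the intermembrane space, rose almost entirely by 48 h: 16.0, 16.1 and 16.1 CPM in WT myoblasts, 63.6, 60.2 and 56.9 CPM in differentiated myotubes and 59.8, 63.9, 63.4 and 60.0 CPM in fused myotubes. Cox14, which acts with the newly made COX1 protein, behaved likewise, with 21.3, 20.9 and 22.6 CPM, then 68.5, 61.6 and 58.0 CPM, then 79.9, 79.3, 81.0 and 74.7 CPM. Sco1, a copper chaperone for the COX2 site, went from 18.3, 16.8 and 17.4 CPM to 41.2, 43.4 and 39.3 CPM and then 37.2, 40.9, 41.9 and 41.0 CPM. Their first-step log2 fold changes were 1.90 ± 0.048, 1.53 ± 0.055 and 1.24 ± 0.054, and in the second step only Cox14 passed the threshold (0.33 ± 0.046). The sign of the Cox19 value of the second step (0.04 ± 0.039) was not stable across corrections for gene length and GC content.

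Sco2, the relative of Sco1 that also delivers copper, ran opposite to it in the first step: 15.0, 13.1 and 14.5 CPM in WT myoblasts, 6.92, 6.14 and 6.20 CPM in differentiated myotubes and 10.4, 13.1, 12.0 and 11.0 CPM in fused myotubes (log2 fold changes −1.15 ± 0.090 and 0.85 ± 0.091). The counting caution applies here, since 64.2% of its sequence also lies in Ncaph2, which stood at 114, 75.6 and 95.1 CPM on average at these stages. Cox18, which inserts the COX2 protein into the membrane, went from 8.09, 8.26 and 8.22 CPM to 7.11, 5.14 and 4.79 CPM and then 7.08, 5.90, 6.41 and 6.18 CPM. Its first-step log2 fold change was −0.54 ± 0.11 (edgeR adjusted p = 6.8e-05), and the second did not pass (0.19 ± 0.11). Cox10, which farnesylates haem on the way to haem a, also fell first and rose later (−0.26 ± 0.055 and 0.85 ± 0.051). Without the 5 members that share sequence with other genes, 26 of 31 rose and 4 fell in the first step, and 26 rose and 2 fell in the second.

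**Figure D2:**
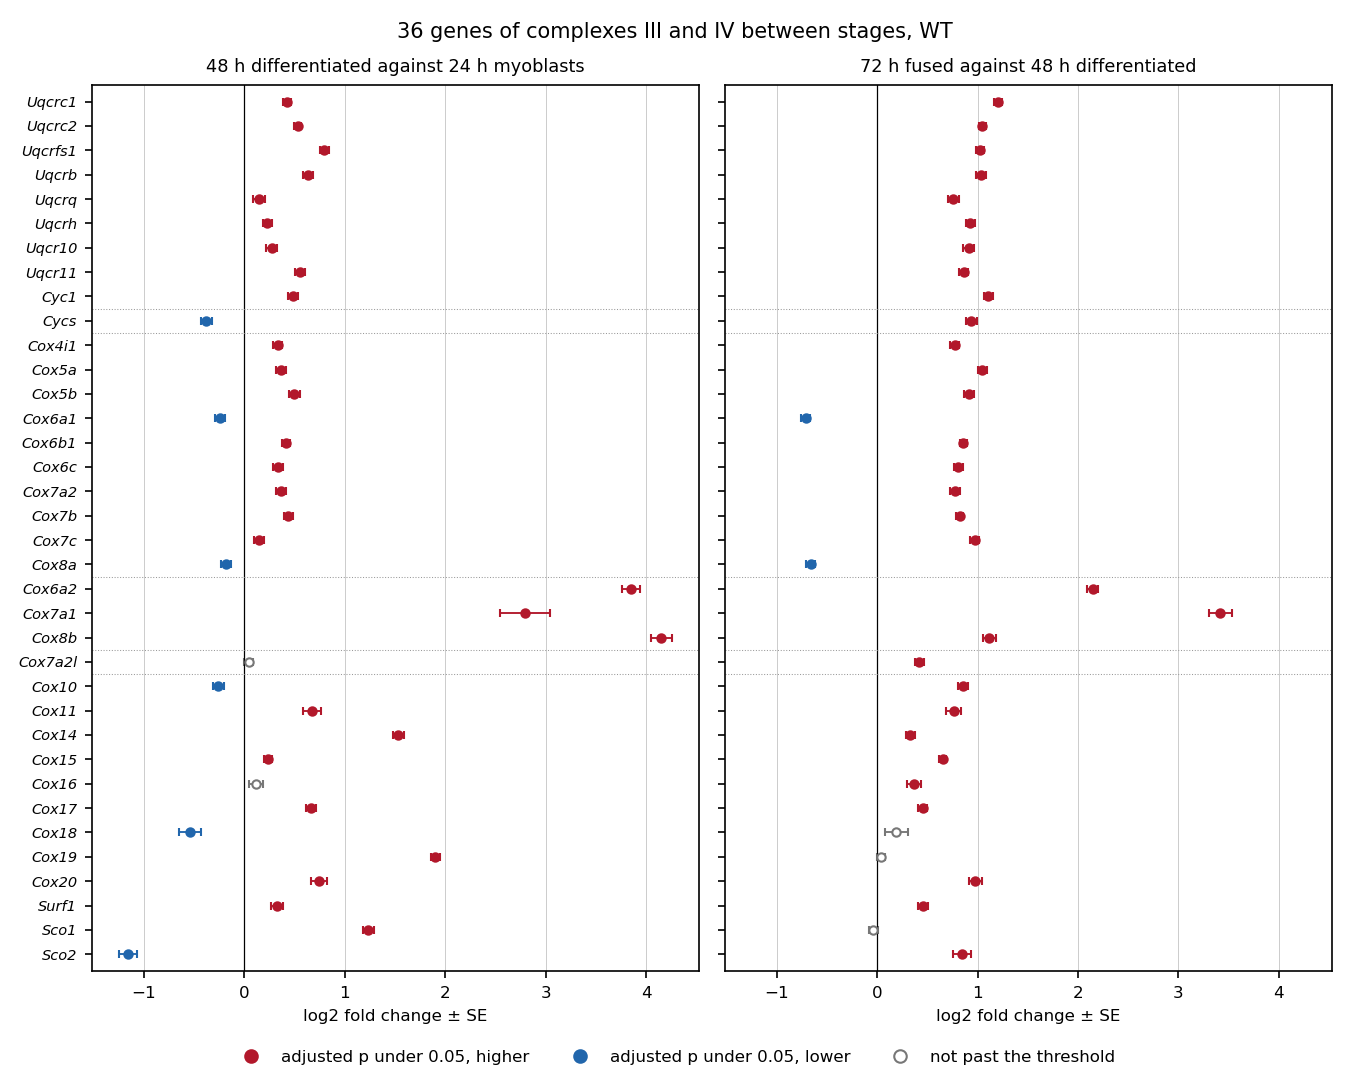
Log2 fold change ± SE of the 36 genes between WT stages, grouped by role with dotted lines (complex III, Cycs, single or ubiquitous complex IV subunits, muscle isoforms, Cox7a2l, assembly factors), with red for higher and blue for lower at an adjusted p under 0.05. The 3 muscle isoforms lie right of all other genes in the first panel (2.80 to 4.15), in the second Cox7a1 (3.42) and Cox6a2 (2.15) do but Cox8b (1.12) lies among the complex III genes, and Cox6a1 and Cox8a lie left of 0 in both.

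The mitochondrially encoded partners followed another course. The 4 genes on mitochondrial DNA (mt-Cytb of complex III and mt-Co1, mt-Co2 and mt-Co3 of complex IV) summed to 8075 to 9745 CPM in WT myoblasts, 24846 to 29402 CPM in differentiated myotubes and 19827 to 23919 CPM in fused myotubes. All 4 rose in the first step, by 1.38 to 1.79 on the log2 scale. In the second step 3 fell, mt-Cytb by 0.91, mt-Co2 by 0.37 and mt-Co3 by 0.29, and mt-Co1 was not called (−0.14). Among 7 further complex III assembly factors, 4 rose in the first step, where 42.4% of all genes did, and 7 in the second, where 37.4% did. The largest first-step rise was that of Uqcc1, a chaperone of newly made cytochrome b (1.40 ± 0.038). Among 19 further complex IV subunits and assembly factors measured, 11 rose and 5 fell in the first step and 16 rose in the second, the share called being close to that of all genes in the first step (85.0%). The forms of other tissues (Cox4i2, Cox6b2, Cox7b2, Cox8c and Cyct) summed to at most 0.982 CPM in any library.

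Glud1KO cells went through the same stages with similar counts. From 24 to 48 h, 29 of 36 members rose and 5 fell (83.7% of all genes passed, 41.3% higher and 42.5% lower), from 48 to 72 h, 32 rose and 3 fell (70.2% passed, 35.8% higher and 34.4% lower), and from 24 to 72 h, 32 rose and 4 fell (87.2% passed, 42.7% higher and 44.5% lower). The median log2 fold changes were 0.55, 0.72 and 1.29, set beside 0.39, 0.85 and 1.19 in WT. Among the ubiquitous partners in Glud1KO, Cox6a1 fell from 491, 477 and 478 TPM through 352 and 341 TPM to 230, 203, 213 and 219 TPM. Cox8a fell from 662, 679 and 646 TPM through 464 and 452 TPM to 329, 306, 314 and 302 TPM. Cox7a2 rose from 522, 509 and 546 TPM through 671 and 619 TPM to 949, 967, 948 and 974 TPM. As in WT, none of these 3 genes overlapped between stages. Cox7a2l stood at 167, 165 and 174 CPM, then 208 and 190 CPM, then 247, 254, 250 and 243 CPM, and was called higher in both steps (0.24 ± 0.051 and 0.32 ± 0.049). The first rise was absent per unit of length, at 308 ± 12.4 TPM (SD) at 24 h and 299 ± 25.0 TPM at 48 h. With scaling by library size alone its sign turned. The WT and Glud1KO courses use separate libraries, and their difference is tested directly further on.

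In myoblasts at 24 h the share of members called was near that of all genes. Uqcrc2 was higher in Glud1KO and Cox6a2 and Cox8b were lower, 3 of 36, in a comparison in which 11.6% of all genes passed, 4.86% higher and 6.69% lower. Cox6a2 stood at 3.52, 3.98 and 4.95 CPM in WT and 2.55, 3.04 and 2.19 CPM in Glud1KO myoblasts, with no overlap (log2 fold change −0.68 ± 0.15, edgeR adjusted p = 0.0027). Cox8b stood at 2.78, 1.90 and 2.64 CPM in WT and 1.52, 1.51 and 1.51 CPM in Glud1KO, again without overlap (−0.71 ± 0.19, edgeR adjusted p = 0.015). Cox7a1, at 0.633, 0.303 and 0.568 CPM against 0.573, 0.294 and 0.393 CPM, overlapped and was not called (−0.27, 95% interval −1.03 to 0.50). Uqcrc2 differed by 0.12 ± 0.037, from 157, 155 and 155 CPM in WT to 167, 166 and 173 CPM in Glud1KO (edgeR adjusted p = 0.040), and was called in 5 of the 16 alternatives run.

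These muscle isoforms were low at 24 h, at 92 to 148 estimated counts for Cox6a2 and 44 to 79 for Cox8b in WT libraries. Each call was lost without 1 WT library: the adjusted p became 0.054 for Cox6a2 without WT myoblast replicate 3, and 0.080 and 0.081 for Cox8b without replicate 1 or 3. Muscle markers moved the same way in the same libraries. Of the 6, 5 were lower in Glud1KO myoblasts (Myh3 by −0.92, Ckm by −0.81, Acta1 by −0.78, Myog by −0.63 and Des by −0.33) and Myod1 was not called (−0.04). Their summed level was 2072 to 2325 CPM in WT and 1696 to 1756 CPM in Glud1KO. Their part in the lower Cox6a2 and Cox8b was not tested. The ubiquitous partners did not pass the threshold (Cox6a1 −0.06 ± 0.049 and Cox8a −0.00 ± 0.049).

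In differentiated myotubes at 48 h the set shifted upwards in Glud1KO by scaled counts, but its summed TPM overlapped between the genotypes. Of 36 members 22 were higher and 1, Sco2, was lower, where 25.2% of all genes passed, 11.0% higher and 14.1% lower. The members' median log2 fold change was 0.18 and that of all genes −0.01. By role, 5 of 9 complex III subunits, Cycs, 7 of 10 single or ubiquitous complex IV subunits, 2 of 3 muscle isoforms and 7 of 12 assembly factors were higher, and Cox7a2l was not called (0.14 ± 0.052). With scaling by library size alone 13 members were higher and 1 lower (6.87% and 18.6% of all genes), and with an effective-length offset 15 were higher and none lower (5.99% and 8.23% of all genes). The differences were small, at most 0.39 on the log2 scale outside Cox6a2, and rested on 2 Glud1KO libraries. Per unit of length, all 36 members summed to 13289 ± 624 TPM (SD) in WT and 13832 ± 549 TPM in Glud1KO, with overlap. The complex III subunits overlapped too, at 4527 ± 184 and 4676 ± 230 TPM. The muscle isoforms did not, at 455 ± 11.1 and 563 ± 12.1 TPM.

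Cox6a2 had the largest rise: 58.8, 59.3 and 61.6 CPM in WT and 84.3 and 90.0 CPM in Glud1KO (0.54 ± 0.067, 1.45-fold, edgeR adjusted p = 8.3e-07). Cox8b stood at 45.3, 45.5 and 41.5 CPM in WT and 59.0 and 56.7 CPM in Glud1KO (0.39 ± 0.074, edgeR adjusted p = 0.00024). For both genes the direction was opposite to that at 24 h. Cox7a1 stood at 2.94, 3.66 and 4.08 CPM against 4.55 and 4.51 CPM, which do not overlap, but its difference did not pass the threshold (0.33, 95% interval −0.05 to 0.70). Of the partners, Cox7a2 was higher (0.19 ± 0.057), and Cox6a1 (−0.04 ± 0.057) and Cox8a (−0.09 ± 0.057) were not called.

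Cox7b, a small membrane-spanning complex IV subunit, had the clearest shift of the remaining genes: 176, 178 and 163 CPM in WT and 233 and 218 CPM in Glud1KO (0.39 ± 0.047, edgeR adjusted p = 4.6e-07). Cox20, a chaperone of the COX2 protein, stood at 20.6, 18.1 and 19.2 CPM in WT and 25.5 and 24.4 CPM in Glud1KO (0.37 ± 0.081). Cox11, which delivers copper to the COX1 site, stood at 10.7, 10.5 and 9.08 CPM in WT and 12.2 and 13.1 CPM in Glud1KO (0.33 ± 0.094). For each of these 3 the groups were apart, although Cox20 and Cox11 share sequence with other genes. Hnrnpu and Tom1l1, the genes that share it, were not called here (0.02 and 0.03). An annotated retained-intron transcript took 54.2% of the Cox7b counts in WT and 52.7% in Glud1KO at this stage.

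Sco2 was the exception, at 6.92, 6.14 and 6.20 CPM in WT and 5.13 and 4.93 CPM in Glud1KO (−0.35 ± 0.13, edgeR adjusted p = 0.046). It lay on the edge of the threshold and was called in 4 of the 15 alternatives run (adjusted p from 0.017 to 0.21). Leaving out the 5 members with shared sequence gave 19 of 31 higher and none lower. Calls outside the members with the smallest p-values depended on single libraries: 14 members were called without WT replicate 3, 13 without Glud1KO replicate 1 and 15 without Glud1KO replicate 2. Cox6a2, Cox8b, Cox7b, Cox6b1, Uqcr11, Cox10 and Cox19 were called in every alternative run.

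Beyond the 36 members, all 4 mitochondrially encoded subunits were higher in Glud1KO, mt-Co3 by 0.50 ± 0.068, mt-Co2 by 0.49 ± 0.083, mt-Cytb by 0.46 ± 0.093 and mt-Co1 by 0.35 ± 0.086. Their summed level was 34505 and 37700 CPM in Glud1KO against 24846 to 29402 CPM in WT. Of 7 further complex III assembly factors 3 were higher (Uqcc1, Uqcc3 and Hccs, by 0.29, 0.33 and 0.19), and of 19 further complex IV genes 6 were higher and none lower, from Coa5 (0.13) to Cmc2 (0.36). The remaining genes of both lists did not pass, and of all genes tested 25.2% did, 11.0% higher. Among the muscle markers only Myod1 was called, lower by −0.31. All 3 satellite cell and proliferation markers were lower (Mki67 by −2.55, Pax7 by −0.92 and Myf5 by −0.19), their summed level being 74.9 to 82.8 CPM in WT and 60.9 to 62.3 CPM in Glud1KO. Their part in the shift of the complex III and IV genes was not tested. Removing each library's trend with gene length and GC content narrowed the gap between the members' median and that of all genes from 0.19 to 0.08. With it removed, 24 members were higher and 3 lower, where 20.7% of all genes were higher and 10.6% lower.

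In fused myotubes at 72 h, 4 of 36 members were higher in Glud1KO and none lower, where 13.0% of all genes passed, 6.32% higher and 6.72% lower. By DESeq2 the count was also 4 higher. Cox6a2 stood at 265, 259, 291 and 250 CPM in WT and 326, 324, 306 and 297 CPM in Glud1KO without overlap (0.24 ± 0.046, edgeR adjusted p = 0.00076). Uqcrfs1, the Rieske iron-sulfur subunit of complex III, stood at 360, 380, 366 and 346 CPM in WT and 406, 407, 400 and 382 CPM in Glud1KO (0.14 ± 0.037, adjusted p = 0.013). Both of these genes had every Glud1KO library above every WT library.

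Uqcr11, a small complex III subunit, overlapped between the genotypes, at 341, 367, 375 and 352 CPM in WT and 417, 406, 372 and 380 CPM in Glud1KO (0.14 ± 0.041, adjusted p = 0.027). Cox6b1, a subunit that faces cytochrome c, stood at 401, 431, 443 and 426 CPM in WT and 455, 471, 463 and 441 CPM in Glud1KO (0.11 ± 0.033, adjusted p = 0.031), also with some overlap. Cox8b was not called (0.02 ± 0.053), with 94.9, 99.8, 102 and 86.7 CPM in WT and 107, 99.3, 88.8 and 93.2 CPM in Glud1KO. Cox7a1 was not called either (0.08 ± 0.075), with 39.4, 41.9, 42.6 and 31.6 CPM against 40.8, 41.6, 42.8 and 37.5 CPM, and both genes overlapped. The count of 4 was 1 without WT replicate 4 and 2 without WT replicate 1, Glud1KO replicate 1 or Glud1KO replicate 2, and Cox6a2 was called in every alternative. Of the mitochondrially encoded subunits, mt-Co3 (0.33) and mt-Co2 (0.20) were higher. No muscle marker was called at this stage, and of the 3 satellite cell and proliferation markers Myf5 was lower (−0.31).

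**Figure D3:**
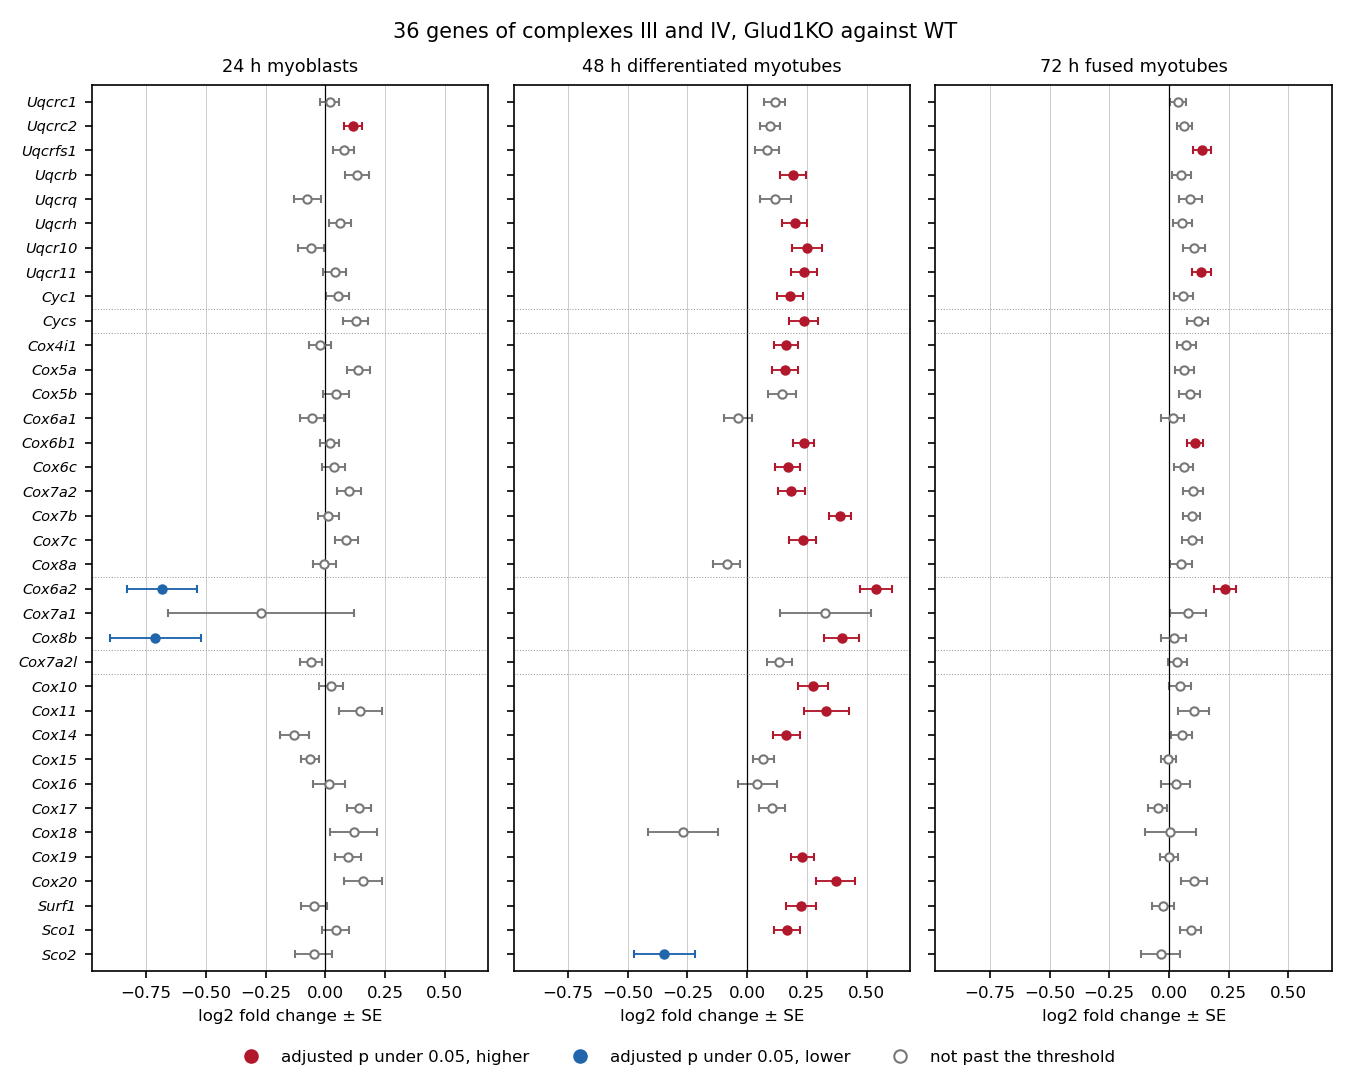
Log2 fold change ± SE of Glud1KO against WT for the 36 genes at 24, 48 and 72 h on a shared axis, grouped by role with dotted lines, with red for higher and blue for lower at an adjusted p under 0.05. At 24 h Cox6a2 (−0.68) and Cox8b (−0.71) lie far left of the other genes, at 48 h 22 genes lie right of 0 in red, and at 72 h 4 do.

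The change of the genotype difference between stages was tested as an interaction. Between 24 and 48 h it rose for 9 members and fell for none (19.1% of all genes passed, 7.78% higher and 11.3% lower). Cox6a2 led with 1.22 ± 0.16 (edgeR adjusted p = 3.6e-06), then Cox8b with 1.11 ± 0.20 (0.00028) and Cox7b with 0.38 ± 0.063 (8.5e-05). Of the 6 muscle markers 5 rose in the same interaction (Myh3 0.90, Ckm 0.89, Acta1 0.87, Myog 0.62 and Des 0.43) and Myod1 fell (−0.27). All 3 satellite cell and proliferation markers fell (Mki67 −2.66, Pax7 −0.93 and Myf5 −0.20). All 4 mitochondrially encoded subunits rose (median 0.57). The part of the markers and of these subunits in the result was not tested. Between 48 and 72 h the difference fell for 6 members (14.8% of all genes passed, 8.27% higher and 6.53% lower): Cox8b, Cox6a2, Cox7b, Surf1, Cox19 and Cox10, by 0.38, 0.30, 0.29, 0.25, 0.23 and 0.23 on the log2 scale. Of these, Cox8b and Cox7b were called in every alternative run and Cox10 in 8 of 23, while Cox6a2 was lost without Glud1KO replicate 2 of 48 h (adjusted p = 0.094). In this interaction Myod1 (0.42) and Pax7 (0.72) rose among the markers and mt-Co1 fell (−0.47). Their part was not tested. Between 24 and 72 h only Cox6a2 (0.92 ± 0.15) and Cox8b (0.73 ± 0.20) passed, both upwards, where 10.3% of all genes did, 5.75% higher and 4.55% lower. Here 4 of the 6 muscle markers rose too (Acta1 0.86, Myh3 0.76, Myog 0.62 and Des 0.33) and none fell, while 1 of the 3 satellite cell and proliferation markers, Myf5, fell (−0.33). Of the 4 mitochondrially encoded subunits 2 rose and none fell (median of all 4, 0.31). The part of the markers and of these subunits was not tested. For Cox8b the last call was lost without WT myoblast replicate 1 (0.64, adjusted p = 0.081) or replicate 3 (0.68, adjusted p = 0.075).

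The muscle share of each pair gave the genotype difference within a library, free of scaling between libraries. The Cox6a2 share in Glud1KO was 1.32% ± 0.199 (SD, n = 3) at 24 h, 34.8% ± 1.08 (n = 2) at 48 h and 74.9% ± 0.968 (n = 4) at 72 h, against 2.01%, 26.2% and 72.0% in WT. Groups did not overlap at any of the 3 stages. The Cox8b share was 1.61% ± 0.0449 and 43.4% ± 0.641 in Glud1KO at 24 and 48 h, against 2.58% ± 0.423 and 35.4% ± 1.18 in WT, and 65.1% ± 1.48 against 65.5% ± 1.48 at 72 h. The Cox7a1 share overlapped at every stage (0.515%, 3.87% and 19.2% in Glud1KO).

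Exact two-sided permutation tests gave p = 0.1 at 24 and 48 h for the Cox6a2 and Cox8b shares, the smallest value these group sizes allow, and p = 0.029 at 72 h for Cox6a2. After adjustment over the 9 tests the smallest value was 0.18, so no share passed, and none could have at these group sizes. The Cox6a2 share was 8.66 percentage points higher in Glud1KO at 48 h and 2.99 points higher at 72 h. The smallest exact p for the remaining 4 share tests was 0.3. At 48 h the TPM of Cox6a1 and Cox8a in both Glud1KO libraries also lay below every WT library, whereas their CPM overlapped and were not called.

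**Figure D4:**
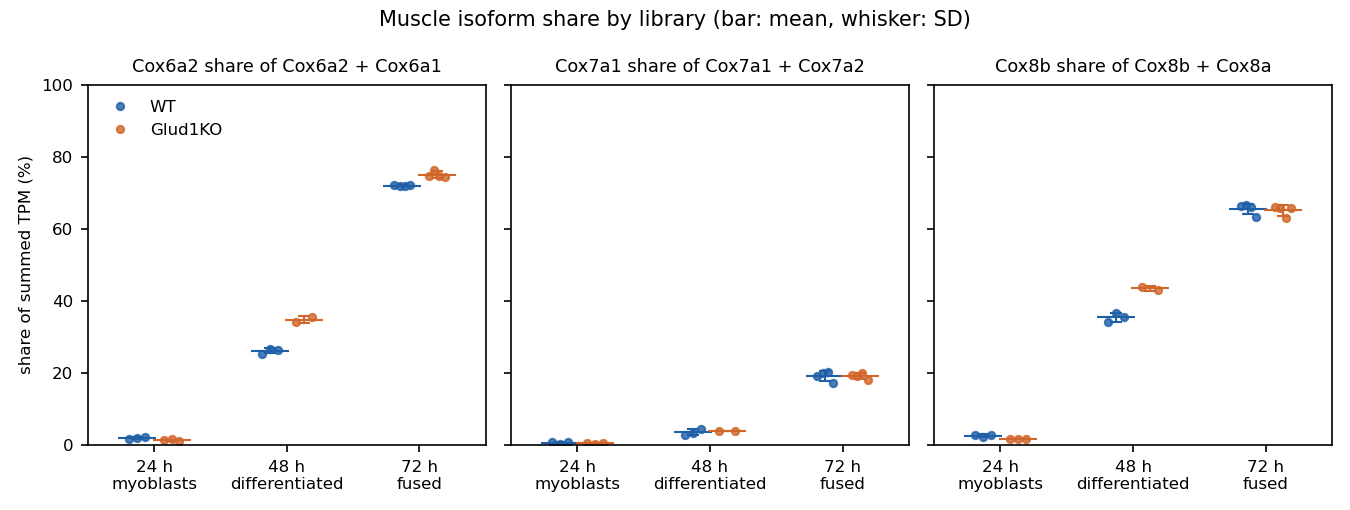
Share of the muscle isoform in the summed TPM of its pair, in percent, for every WT (blue) and Glud1KO (orange) library at 24, 48 and 72 h, with the mean as a bar and the SD as whiskers. The 2 Glud1KO libraries at 48 h lie above the 3 WT libraries for Cox6a2 (34.0% and 35.6% against at most 26.7%) and Cox8b (43.0% and 43.9% against at most 36.5%), and the genotypes overlap for Cox7a1 at each stage.

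Across the 3 stages, 18 of the 36 members were called at 48 h only and in the higher direction, and 11 were called at no stage. Over all genes tested these patterns held 7.34% and 62.3%. Cox6a2 was the only member called at all 3 stages, lower at 24 h and higher at 48 and 72 h, and Cox8b the only other one called in opposite directions. Uqcr11 and Cox6b1 were higher at 48 and 72 h, Uqcrc2 was called at 24 h alone and Uqcrfs1 at 72 h alone. These per-stage calls do not show a difference between stages, for which the interaction tests stand.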

How the data were processed

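Gene expression was measured by RNA-seq of polyadenylated RNA (Illumina TruSeq mRNA, per the labels' protocols). Per the submitters' processing notes, the tools were bcl2fastq 2.20, fastp 0.20.0, kallisto 0.46.1 and edgeR 3.36, with build GRCm38.p6. Per the file headers, the authors deposited 1 table per library that lists, for each transcript, the estimated count and the TPM. The table names carry a KO mark in both genotypes, and the groups follow the sample labels.

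Transcripts were assigned to genes with GENCODE release M21 (121018 of 121843 matched; the rest held 0.255% to 0.507% of counts). Estimated counts were summed per gene and rounded, and TPM values were summed. All 19 libraries were fitted together with 6 group coefficients in edgeR 4.0.16 (filterByExpr, TMM scaling, quasi-likelihood test, R 4.3.3), p-values of all 15123 genes tested adjusted by Benjamini-Hochberg, and a gene called at an adjusted p under 0.05. The SE was computed from the log2 fold change and the F statistic. Isoform shares were compared by exact permutation tests. The fit was tested on simulated data.

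The members and lists were chosen with earlier results of these data known. Values in every library are given for the 3 isoform pairs and Cox7a2l, and, among the other members, in the libraries compared, for the 3 largest called rises and 3 largest called falls in each genotype comparison and each successive WT stage comparison. Other members named as the end of a range or an exception were chosen after their values were seen.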

Additional observations from a re-analysis of the deposited data

Results flagged for a closer look

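In groups of 4 libraries, 5 of 78 checks had a library far from the others, where chance gives about 1 in 20. Cycs stood at 206 CPM in Glud1KO fused-myotube replicate 4, with the others at 236 to 242. Cox7a2l stood at 253 CPM in WT fused-myotube replicate 3, with the others at 238 to 240. The Cox6a2 share was 76.4% in Glud1KO fused-myotube replicate 2 (74.4% to 74.5% in the others). The Cox8b share was 63.3% in WT fused-myotube replicate 4 (65.9% to 66.5%) and 62.9% in Glud1KO fused-myotube replicate 3 (65.7% to 66.1%).

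The genotype difference changed between stages for 17 gene and stage pairs by the interaction term of the edgeR fit. From 24 to 48 h its log2 value rose by 1.22 for Cox6a2, 1.11 for Cox8b, 0.38 for Cox7b, 0.31 for Uqcr10, 0.29 for Cox14, 0.27 for Surf1, 0.25 for Cox10, 0.22 for Cox6b1 and 0.19 for Cox7a2l. From 48 to 72 h it was −0.38 for Cox8b, −0.30 for Cox6a2, −0.29 for Cox7b, −0.25 for Surf1, −0.23 for Cox19 and −0.23 for Cox10. From 24 to 72 h it was 0.92 for Cox6a2 and 0.73 for Cox8b.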

How the results depend on the processing

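Of 36 members, the number called at 24 h was 3, and 6 when only the libraries compared were fitted (1 to 3 leaving out a library). At 48 h it was 23, with 14 under scaling by library size alone, 15 with an effective-length offset and 13 to 27 leaving out a library. At 72 h it was 4, with 1 under the effective-length offset and 1 to 5 leaving out a library. For the interactions, 9 calls from 24 to 48 h became 5 with library size alone and 5 with the offset (6 to 11 leaving out a library). From 48 to 72 h, 6 became 3 with library size alone, 10 with the length and GC trend removed and 3 with protein-coding transcripts only (3 to 7 leaving out a library), and from 24 to 72 h, 2 ranged from 1 to 3. Leaving out a Glud1KO library at 48 h leaves 1, assumed to vary like the others.

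At 24 h the split was 1 higher and 2 lower, but 0 and 2 with DESeq2's size factors, library size alone or the offset. With the trend removed it was 24 higher and 3 lower at 48 h, where 20.7% of all genes were higher and 10.6% lower. At 72 h it was 3 higher and 1 lower (8.14% and 6.54% of all genes). Library size alone moved the median of all genes to −0.23 for WT from 24 to 48 h and gave 19 members higher and 7 lower there.

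Signs turned for WT from 24 to 48 h with library size alone (Cox7c −0.10, Cox7a2l −0.21, Cox15 −0.016, Uqcrq −0.11, Uqcrh −0.023) and for Glud1KO (Cox7c −0.015, Cox7a2l −0.068). With the trend removed they turned for Uqcrq (−0.13 in WT, −0.081 in Glud1KO), Uqcr10 (−0.076 in WT), Cycs (0.038 in Glud1KO) and, from 48 to 72 h in WT, Cox19 (−0.15). With protein-coding transcripts only, Cycs gave 0.0089 in WT and 0.054 in Glud1KO from 24 to 48 h. The causes were not tested. The Cox7a1 share difference at 72 h was −1.57 points with protein-coding transcripts only. From estimated counts not divided by length, the Cox8b share differences were −0.430 at 24 h and 5.68 at 48 h.

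Leaving out a library, share differences ranged from −0.839 to −0.578, 7.89 to 9.42 and 2.51 to 3.18 points for Cox6a2 at 24, 48 and 72 h, −0.287 to −0.0746, −0.0372 to 0.757 and −0.644 to 0.414 for Cox7a1, and −1.21 to −0.807, 7.43 to 8.61 and −1.12 to 0.342 for Cox8b. Same-numbered libraries did not deviate together (correlations −0.051 to 0.029). With a replicate block, 3, 22 and 4 members were called at 24, 48 and 72 h, and the Cox6a2 share difference at 48 h was 8.79 points. Low counts limit Cox7a1 at 24 h. Alternatives for Cycs with Gm10053 and without members sharing sequence were chosen after seeing the data.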
